A study of Drosophila melanogaster with 3 samples.

Results

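The small heat shock protein genes of Drosophila melanogaster were examined for binding of CG10431 by chromatin immunoprecipitation followed by sequencing (ChIP-seq), in which DNA bound by a protein is recovered with an antibody and sequenced. The 7 genes were taken by name: Hsp22, Hsp23, Hsp26, Hsp27, Hsp67Ba, Hsp67Bb and Hsp67Bc, out of 18358 annotated genes (13986 of them protein-coding). All 7 were found, 6 under their own symbol and Hsp67Bb as CG4456, the name the Ensembl annotation gives it. The samples are 3 biological replicates of 1 group: whole embryos aged 0 to 12 h, males and females pooled, of 1 transgenic line that stably expresses CG10431 with green fluorescent protein (GFP) fused to its C terminus. The promoter that drives the fusion is not given in the labels, and no heat shock is named there. With 1 group, no condition could be compared, and in whole embryos a site bound in more cells and a site bound more strongly per cell cannot be told apart. The antibody field and the assay name describe a ChIP, while 1 free-text label speaks of an input control, so the samples were read as ChIP samples.

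Each deposited file is a list of intervals, called entries here, each with a summit and a signal that the authors' peak caller gave it on a scale not given in the sources used here. A list of 30000 candidate entries, peaks and background together, was deposited for each replicate and for the 3 replicates pooled, and the 3314 pooled entries that passed the irreproducible discovery rate (IDR) analysis form the list of reproducible peaks. IDR entries are the top of the pooled list by signal, so rank 1 is the strongest entry and rank 3314 the weakest IDR entry. Genes were set against each other by signal within a list only; for 1 gene, the values of the 3 replicate lists are given side by side with their mean and SD, as a description, since the scales of the lists may differ. The read depth behind the lists is unknown. Of the 3314 IDR entries, 61.2% had a summit within 250 bp in the 3314 strongest entries of every replicate.

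Small heat shock proteins are chaperones of the alpha-crystallin family that hold unfolding proteins without using ATP. In Drosophila their genes are among the classical heat-inducible genes: heat shock factor binds inverted repeats of a short unit, the heat shock element, upstream of the start, and at several of them GAGA factor and a paused RNA polymerase keep the promoter accessible before heat. Several of them are also switched on in development without heat, among other signals by the hormone ecdysone. CG10431 was assayed in the series as a transcription factor.

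All 7 genes lie in 1 cluster on chromosome arm 3L of the dm6 assembly, between bases 9371511 and 9385694, a span of 14184 bp. From left to right stand Hsp67Bc (FBgn0001229, minus strand, 9371511 to 9372497), Hsp67Bb (FBgn0001228, plus strand, 9372722 to 9374964), Hsp22 (FBgn0001223, plus strand, 9372931 to 9374964), Hsp26 (FBgn0001225, minus strand, 9376418 to 9377427), Hsp67Ba (FBgn0001227, minus strand, 9377802 to 9379534), Hsp23 (FBgn0001224, plus strand, 9381882 to 9382765) and Hsp27 (FBgn0001226, plus strand, 9384063 to 9385694). The annotated Hsp22 gene lies within Hsp67Bb and shares a transcript start with it at 9372931, so an entry there counts for both. Translation of the annotated coding sequences gave proteins of 174 (Hsp22), 186 (Hsp23), 208 (Hsp26), 213 (Hsp27), 445 (Hsp67Ba), 111 (Hsp67Bb) and 199 (Hsp67Bc) residues. Pairwise identity among the other 6 ran from 40.1% between Hsp22 and Hsp67Ba to 56.2% between Hsp23 and Hsp27. Hsp67Bb stood apart: it aligned over 44 to 83 residues with the others, at 25.3% to 36.7% identity. It is kept in the list by its name, and these alignments give little ground to count its protein in the family.

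A single member had a reproducible peak. An IDR summit lay within 1 kb of a transcript start at 1 of the 7 genes, Hsp27, against 17.3% of protein-coding genes and 15.3% of all annotated genes. A pooled candidate summit lay within 1 kb of a start at 7 of the 7, against 52.5% of protein-coding genes and 49.8% of all genes. Among protein-coding genes with a pooled candidate, 32.9% had an IDR summit, beside 1 of the 7 members. The members' pooled candidates are not 7 separate entries: Hsp67Bc, Hsp67Bb and Hsp22 share their strongest one, which leaves 5 distinct entries. These counts describe a list of named genes and were not tested.

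**Figure D1:**
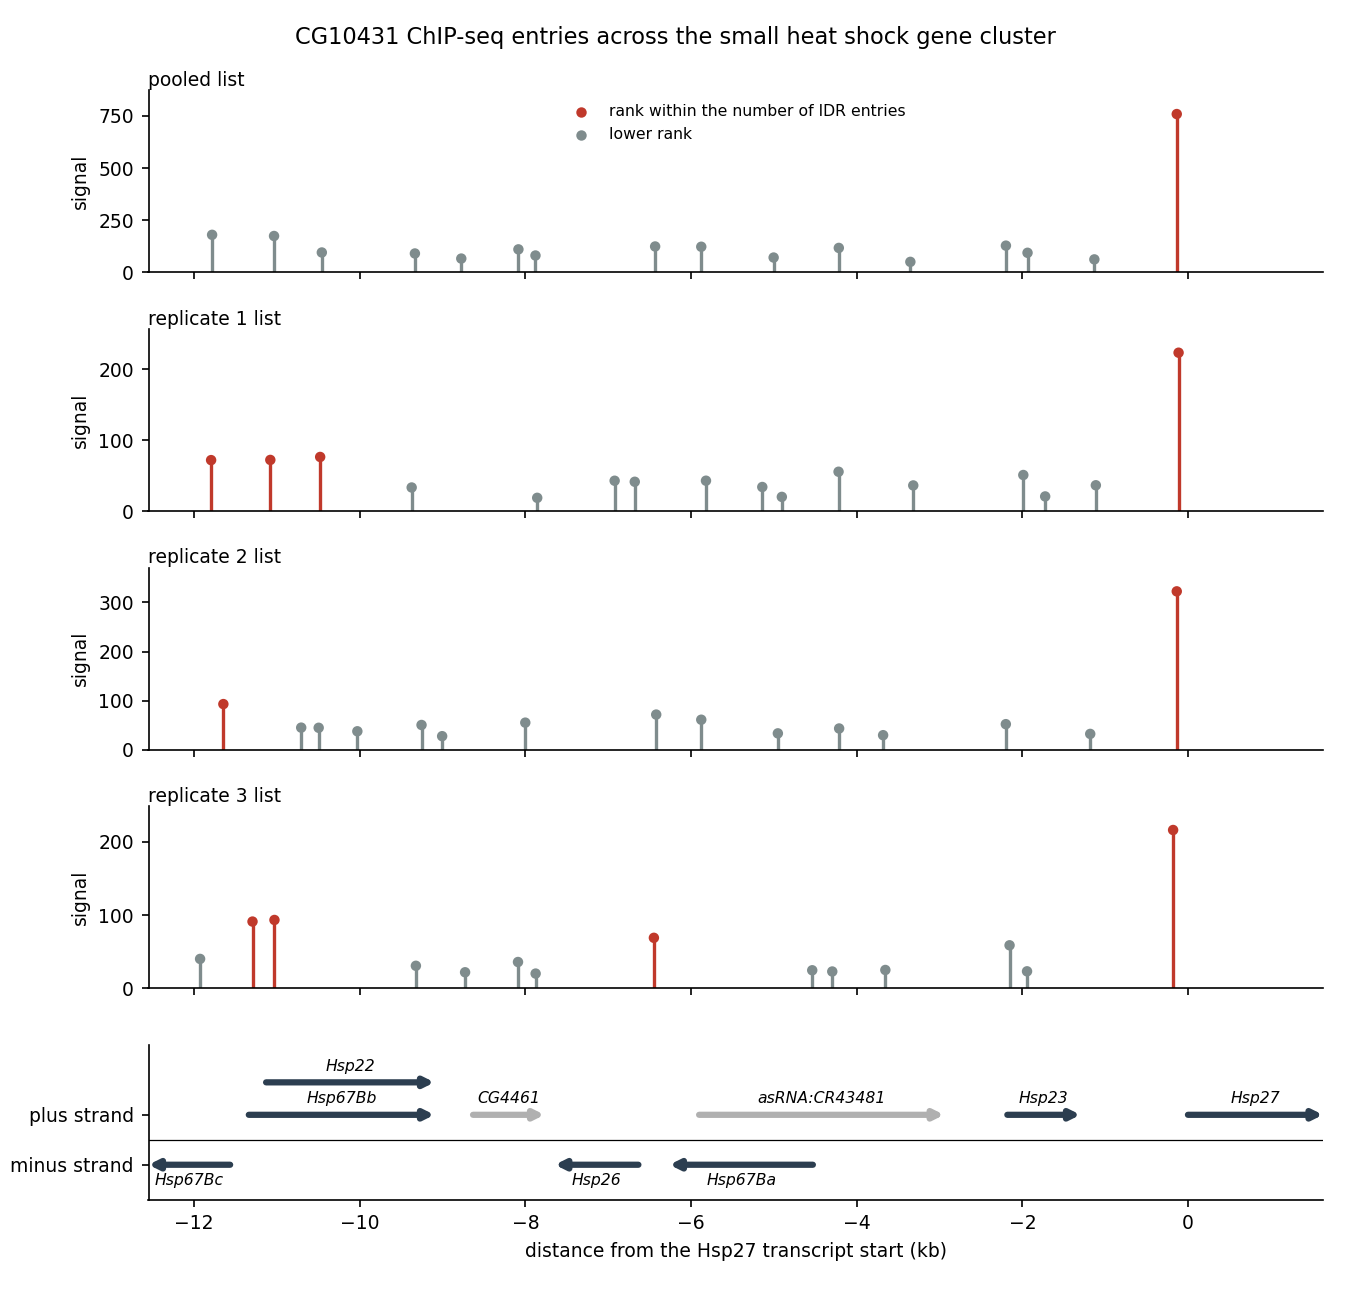
Signal of every candidate entry between the outermost ends of the 7 genes, in the pooled list and in each replicate list (vertical axes, each list on its own scale), by distance of the summit from the Hsp27 start (kb), with the genes drawn to scale below (dark, members; grey, other genes). Red entries rank within the 3314 strongest of their list; the entry upstream of Hsp27 is the highest in all 4 lists, with a pooled signal of 758.7, and the next one in the pooled list reaches 180.1.

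Hsp27 encodes the nuclear member of the family, which is also made without heat, for example in the ovary. Its IDR entry spans chr3L:9383776-9384060, in sequence between Hsp23 and Hsp27, and its summit at 9383928 is 135 bp upstream of the Hsp27 start. The pooled signal was 758.7, rank 235 of the pooled list, which is within the top 7.09% of IDR entries and above 96.9% of the protein-coding genes that have a candidate. The median IDR signal was 280.0. The signal at Hsp27 was 223.3 in replicate 1, 322.6 in replicate 2 and 215.9 in replicate 3, a mean of 253.9 ± 59.6 (SD, n = 3). The corresponding ranks were 289, 223 and 252, so the entry stood at nearly the same height in every replicate list. The replicate summits lay 113, 135 and 179 bp upstream of the start, within 66 bp of each other. The entry is 285 bp wide, while the most frequent IDR width is 424 bp; 24.9% of IDR entries are narrower. Its −log10 q of 3.33 is the highest value in the pooled list and is shared by 1059 entries, so the q-value does not order it among them.

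The sequence around this peak is shown because it holds the single reproducible summit of the family. It is the plus strand of chr3L:9383713-9384012 in the RefSeq copy of dm6, from 350 to 51 bp upstream of the start. The pooled summit is base 216, and the capitals mark the pair of inverted heat shock units nearest to the start, written GAANNTTC, where N is any base.

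Hsp27: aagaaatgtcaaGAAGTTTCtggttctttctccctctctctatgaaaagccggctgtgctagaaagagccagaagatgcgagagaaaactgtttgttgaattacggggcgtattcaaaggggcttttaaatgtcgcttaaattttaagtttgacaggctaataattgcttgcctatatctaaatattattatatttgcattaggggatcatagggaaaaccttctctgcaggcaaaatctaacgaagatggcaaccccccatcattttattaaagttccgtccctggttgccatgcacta

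That pair begins 338 bp upstream of the Hsp27 start and 203 bp from the summit. Within 100 bp on either side of the summit, 0 of the 5 motifs searched were present: the heat shock pairs GAANNTTC and TTCNNGAA, the GAGA run GAGAG, the TATA box TATAAA and the run TACATGG, all searched on both strands. The TATA box matched 28 bp upstream of the start, 107 bp from the summit. The nearest GAGAG match began 136 bp from the summit. The absence of a match says only that these letters are not in this window.

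Hsp26 and Hsp23 encode cytosolic small heat shock proteins that are abundant after heat and also appear in development. Neither had an IDR entry. At Hsp26 the strongest pooled entry, chr3L:9377417-9377840, peaked 202 bp upstream of the outer start, with a signal of 124.3 and rank 6600. In replicates 1, 2 and 3 the Hsp26 signal was 42.8, 71.6 and 68.9 (mean 61.1 ± 15.9, SD, n = 3), at ranks 5554, 4196 and 2865. Replicates 2 and 3 placed the summit 215 and 187 bp upstream, whereas the strongest entry of replicate 1 lay 816 bp upstream, within the coding exon of Hsp67Ba. That entry lay nearer to another gene, 83 bp downstream of a start of the antisense RNA gene asRNA:CR43481, but counts in the Hsp26 mean. Replicate 1 held no entry between Hsp26 and Hsp67Ba at all. Its other entries near Hsp26, 8 bp upstream of the inner start and in the coding exon, had signals of 41.3 and 42.8.

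The Hsp26 promoter is shown because 3 of its pairs of heat shock units lie within 100 bp of the candidate summit. It is the minus strand of chr3L:9377428-9377727 (RefSeq copy of dm6), the 300 bp before the outer start, with base 99 at the pooled summit and the pairs GAANNTTC and TTCNNGAA in capitals.

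Hsp26: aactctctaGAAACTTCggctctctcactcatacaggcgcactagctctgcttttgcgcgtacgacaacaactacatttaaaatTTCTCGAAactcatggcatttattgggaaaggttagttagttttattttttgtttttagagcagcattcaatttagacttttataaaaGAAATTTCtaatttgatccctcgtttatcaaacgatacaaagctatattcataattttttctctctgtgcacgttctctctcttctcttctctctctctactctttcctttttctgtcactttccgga

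The 3 pairs begin 14, 74 and 89 bp from the summit. In the 500 bp upstream of its starts Hsp26 held 4 pairs (outer start) and 5 pairs (inner start), windows that overlap; 4 or more were found before 0.130% of the 19276 starts of protein-coding genes scanned. The Hsp26 entry, among these pairs, had a pooled signal of 124.3, and the Hsp27 entry, with no pair within 100 bp of its summit, had 758.7. Whether pairs and signal are related was not tested.

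At Hsp23 the strongest pooled entry, chr3L:9381653-9382076, peaked 17 bp upstream of the start, the nearest to a start among the members, with a signal of 128.3 and rank 6254. The Hsp23 signal was 50.8, 52.1 and 58.7 in replicates 1, 2 and 3 (mean 53.9 ± 4.25, SD, n = 3). The ranks were 4141, 7542 and 3955, so the entry stood lower in the list of replicate 2 than in the others. The summits lay 193 bp downstream, 18 bp upstream and 27 bp downstream of the start.

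The 200 bp before the Hsp23 start are shown for comparison, as the plus strand of chr3L:9381682-9381881 (RefSeq copy of dm6). The summit is base 184, and capitals mark the pairs TTCNNGAA and GAANNTTC.

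Hsp23: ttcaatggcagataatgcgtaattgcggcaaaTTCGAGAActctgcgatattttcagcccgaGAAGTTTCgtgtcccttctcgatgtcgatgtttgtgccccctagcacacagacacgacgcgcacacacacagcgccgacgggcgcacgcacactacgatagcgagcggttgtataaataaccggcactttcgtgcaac

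Hsp23 held 4 heat shock pairs in the 500 bp before its start, and none of them lay within 100 bp of its summit. The single motif matched in that window was the TATA box.

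Hsp67Ba encodes the longest protein of the family, whose function is less studied. Its strongest pooled entry, chr3L:9379635-9380058, peaked 313 bp upstream of the start, inside a noncoding exon of the antisense RNA gene asRNA:CR43481, with a signal of 117.4 and rank 7239. The Hsp67Ba signal was 55.4, 43.3 and 25.1 in replicates 1, 2 and 3 (mean 41.3 ± 15.3, SD, n = 3). The ranks, 3606, 10543 and 18424, differed more than at any other member. In replicates 1 and 2 the summit lay 310 and 317 bp upstream, and in replicate 3 the strongest entry lay 875 bp upstream. That of replicate 3 lay nearer to asRNA:CR43481, 50 bp downstream of 1 of its starts. Hsp67Ba was also the member with 0 heat shock pairs, 0 GAGAG and 0 TATAAA matches in its 500 bp upstream.

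A stretch upstream of Hsp67Ba is shown because it holds TACATGG (capitals), a run more frequent at IDR summits (7.72%) than at other pooled summits (2.54%). The motifs were chosen with earlier results of these data known, so these shares are no independent evidence for the run. The stretch is the minus strand of chr3L:9379665-9379784 (RefSeq copy of dm6), from 250 to 131 bp before the start. The stretch does not reach the pooled Hsp67Ba summit, 313 bp upstream, and TACATGG was absent within 100 bp of that summit.

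Hsp67Ba: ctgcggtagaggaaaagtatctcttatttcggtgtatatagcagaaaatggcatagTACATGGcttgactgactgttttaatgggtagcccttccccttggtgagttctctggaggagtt

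The left end of the cluster holds Hsp67Bc, whose protein works with the co-chaperone Starvin in autophagy, Hsp67Bb, and Hsp22, whose protein enters mitochondria and is known for its rise with age. These 3 genes share 1 pooled entry as their strongest, chr3L:9372067-9372490, with a signal of 180.1 and rank 3516. Its summit at 9372279 is in the coding exon of Hsp67Bc, 218 bp downstream of the Hsp67Bc start, 443 bp upstream of the Hsp67Bb start and 652 bp upstream of the outer Hsp22 start. This entry came closest to the IDR list without entering it: the lowest IDR signal was 186.7, 1.04 times as high, and the highest pooled signal outside the list 186.66. A further entry with its summit at 9373027, in the 5′ UTR of Hsp22, reached 174.5 at rank 3728.

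Each replicate held an entry near this summit, but its strongest entry there was not always that one. The entries nearest to the pooled summit lay 12, 136 and 145 bp from it in replicates 1, 2 and 3, with signals of 71.8, 92.97 and 40.2 at ranks 2332, 2631 and 7990. For Hsp22 and Hsp67Bb the strongest entry had a signal of 76.3, 92.97 and 93.3 in replicates 1, 2 and 3 (mean 87.5 ± 9.72, SD, n = 3), at ranks 2097, 2631 and 1492. All 3 ranks are within the strongest 3314 of their lists, but the summits, at 9373584, 9372415 and 9373032, span 1169 bp, as the strongest was picked among several entries of similar signal. For Hsp67Bc the signals were 72.1, 92.97 and 93.3 (mean 86.1 ± 12.1, SD, n = 3), and the summits spanned 617 bp.

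The 224 bp between Hsp67Bc and Hsp67Bb, which separate starts on opposite strands, held 0 summits in the pooled list and 0 in each replicate list. They are shown as the plus strand of chr3L:9372498-9372721 (RefSeq copy of dm6), with the 1 heat shock pair in capitals, because candidate summits flanked them on both sides.

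Hsp67Bc to Hsp67Bb: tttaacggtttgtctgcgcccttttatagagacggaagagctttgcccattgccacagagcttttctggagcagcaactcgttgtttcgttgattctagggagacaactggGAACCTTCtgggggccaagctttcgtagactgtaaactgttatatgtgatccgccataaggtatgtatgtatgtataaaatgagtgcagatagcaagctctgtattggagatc

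**Figure D2:**
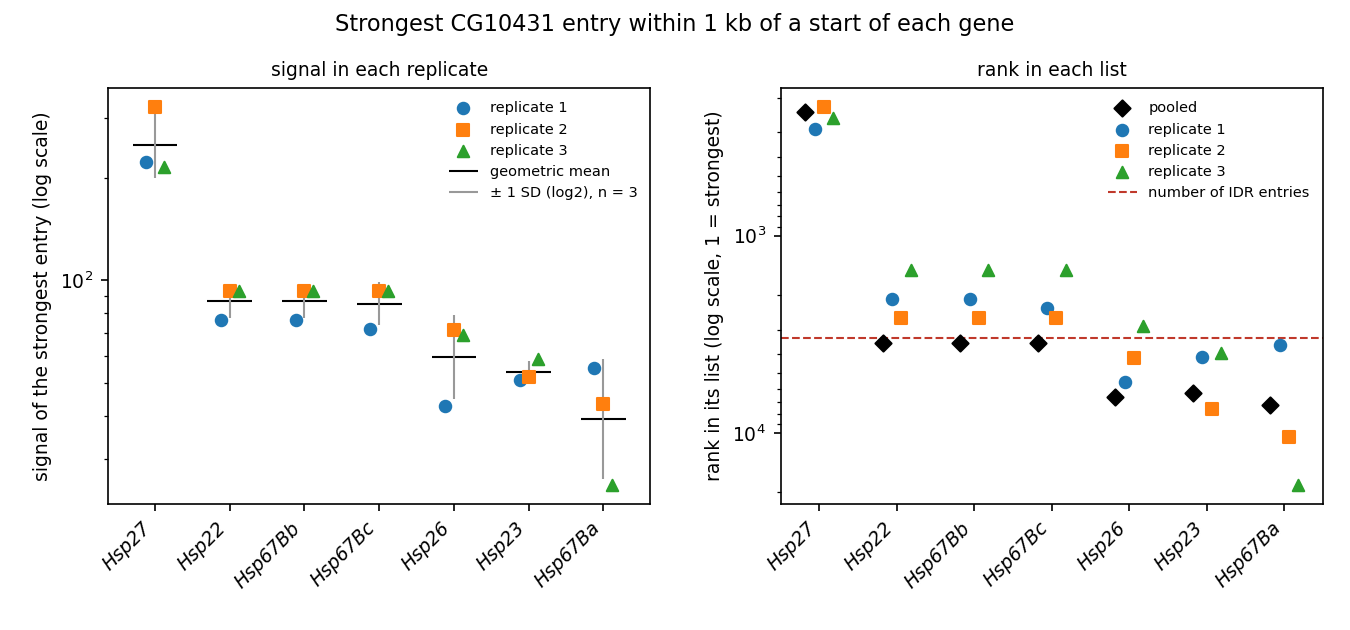
Left, signal of the strongest entry within 1 kb of a start of each gene in replicates 1, 2 and 3 (points), with the geometric mean and ± 1 SD of the log2 signal (n = 3); right, rank of that entry in the pooled list and in each replicate list, with the number of IDR entries (3314) as a dashed line. Hsp27 sits above every other member in each replicate, at ranks between 223 and 289; Hsp22, Hsp67Bb and Hsp67Bc overlap with each other, and so do Hsp26, Hsp23 and Hsp67Ba.

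The order of the members was followed within each replicate. On the log2 scale the mean signal was 7.96 ± 0.32 (SD, n = 3) at Hsp27, 6.45 ± 0.17 at Hsp22 and Hsp67Bb, 6.42 ± 0.21 at Hsp67Bc, 5.90 ± 0.41 at Hsp26, 5.75 ± 0.11 at Hsp23 and 5.29 ± 0.59 at Hsp67Ba. Hsp27 exceeded Hsp22 by 2.93, 3.47 and 2.32 times in replicates 1, 2 and 3, and the pooled ratio was 4.21. In each of the 4 candidate lists Hsp27 was above every other member. Hsp22 exceeded Hsp26 by 1.78, 1.30 and 1.35 times when the strongest entries were taken. With the entries nearest to the pooled summits, a choice added after the data had been seen, the ratios were 1.74, 1.30 and 0.583, so Hsp22 was below Hsp26 in replicate 3 (mean log2 ratio 0.13, against 0.55). Hsp26 was below Hsp23 in replicate 1 and above it in replicates 2 and 3, with ratios of 0.842, 1.38 and 1.17. Hsp23 was likewise below Hsp67Ba in replicate 1 and above it in the others, with ratios of 0.917, 1.20 and 2.34. Across 9 pairs (4 of neighbours in the order and 5 more with Hsp27), two-sided exact sign-flip permutation tests over the 3 replicates gave p = 0.25 for each pair with Hsp27 and for Hsp22 over Hsp26 (adjusted p = 0.321). This is the smallest p that 3 replicates allow, so no pair could pass 0.05. For Hsp26 over Hsp23 the exact p was 0.75 and for Hsp23 over Hsp67Ba 0.5. The differences among Hsp26, Hsp23 and Hsp67Ba were within the spread between replicates.

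Beside all protein-coding genes with a candidate, the members other than Hsp27 spread around the middle of the pooled list, and the members' median stood higher in the replicate lists. The shared entry of Hsp22, Hsp67Bb and Hsp67Bc was above 65.6% of those genes, that of Hsp23 above 46.4%, that of Hsp26 above 44.4% and that of Hsp67Ba above 41.1%. The median of the members' strongest signals was 180.1 in the pooled list, which is the shared entry, against 136.9 over 7347 protein-coding genes. In replicates 1, 2 and 3 the members' medians were 72.1, 92.97 and 93.3, against 39.7, 59.6 and 46.3 over all such genes. These medians were above 77.6%, 73.6% and 84.5% of the genes. Each value is the strongest entry within 1 kb, and the greater density of entries in the cluster was not allowed for.

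The cluster held many entries outside the IDR list beside the 1 strong peak. Between the outermost ends of the members lay 16 pooled summits, of which 1 is an IDR summit, 7 rank between the end of the IDR list and rank 10000, and 8 rank beyond 10000. Replicates 1, 2 and 3 held 16, 15 and 14 entries in the same span. This amounts to 11.3 pooled entries per 10 kb against 2.45 per 10 kb of the whole arm, a ratio of 4.61, with ratios of 4.72, 4.37 and 4.08 in the replicates. For IDR entries, the 1 peak gives 0.705 per 10 kb against 0.261, a ratio of 2.70. Transcript starts were dense as well, 12 in the span, or 8.46 per 10 kb against 1.62 over the arm. Their excess over the arm was larger than that of the pooled entries.

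When arm 3L was divided into 1981 windows as long as the cluster, the median window held 2 pooled summits and the fullest 19. At least 16 were found in 19 windows, or 0.959%. Those 19 windows held a median of 2 IDR summits (range 0 to 4). Of the windows, 9 had at least 12 transcript starts, and these held a median of 8 pooled summits (range 2 to 12), so none of the 9 reached 16. The windows were laid end to end from the start of the arm, so their edges can split a group of genes. The cluster's span was cut at its outermost gene ends, so its count and theirs are not on equal terms. Counts of windows are a description of the arm and were not tested.

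**Figure D3:**
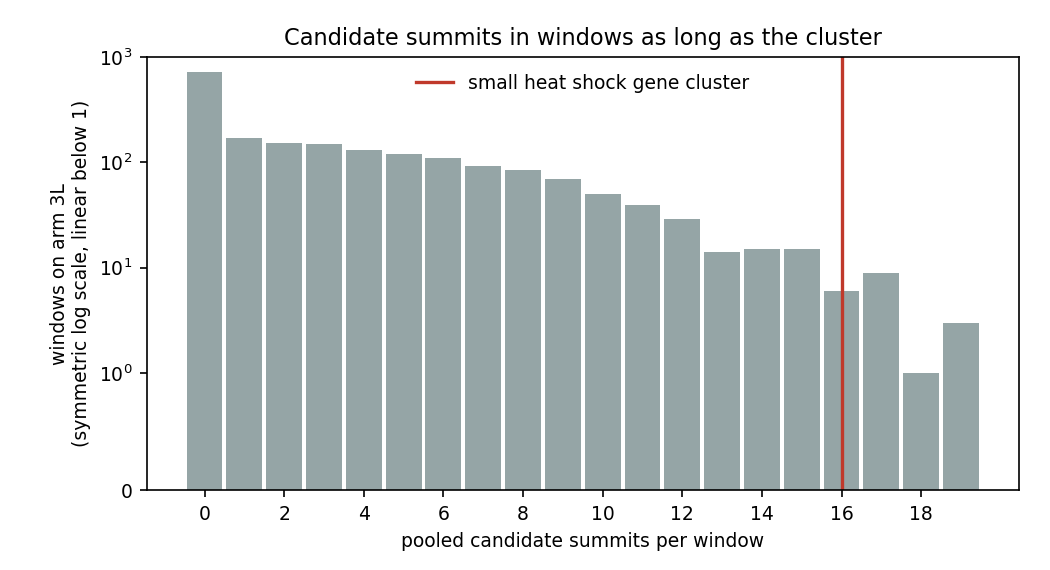
Number of windows on arm 3L (vertical axis, symmetric log scale) by the number of pooled candidate summits they hold (horizontal axis), for 1981 windows of 14184 bp. The red line marks the 16 summits of the small heat shock gene cluster, reached or passed by 19 windows.

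Most of the 16 pooled entries had a counterpart among the weaker candidates of the replicates. Over the whole candidate lists, a comparison added after the data had been seen, 8 of the 16 had a replicate summit within 250 bp in all 3 replicates and 15 in at least 2. Of the 15 outside the IDR list, 7 (46.7%) were found in all 3, beside 38.2% of all pooled entries outside the IDR list. These shares are not on equal terms. Replicate entries were 4.72, 4.37 and 4.08 times as dense in the span as on the arm, and denser entries match within 250 bp more often. The entries in the span also had a higher median signal than their whole lists. How far density or signal bears on the share was not tested. Among the 3314 strongest replicate entries, a limit that 15 of the 16 miss in the pooled list itself, 11 were found in 0 replicates, 2 in 1, 2 in 2 and 1, that of Hsp27, in 3. The pair found in 2 replicates are the entry in Hsp67Bc (replicates 1 and 2) and the entry in the 5′ UTR of Hsp22 (replicates 1 and 3). The entries found in 1 replicate are the one upstream of Hsp26 (replicate 3) and the one 393 bp upstream of the inner Hsp22 start (replicate 1). The highest signal in the span was that of Hsp27 in every list.

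Entries lay on both sides of the starts. Of the 11 pooled summits within 1 kb of a member's start, 6 were upstream and 5 downstream of the nearest one, and the replicates had 5 and 8, 7 and 5, and 4 and 7. The summit just inside the window lay 759 bp upstream of the outer Hsp26 start (signal 123.0, rank 6711). It was nearer to a start of asRNA:CR43481, 26 bp away. The nearest one outside lay 1051 bp downstream of the Hsp23 start (signal 62.4, rank 19745). In the sequence between neighbouring members, the pooled list held 3 summits between Hsp22 and Hsp26 (1453 bp), 1 between Hsp26 and Hsp67Ba (374 bp), 3 between Hsp67Ba and Hsp23 (2347 bp) and 2 between Hsp23 and Hsp27 (1297 bp). The replicates held 1, 2 and 3 summits between Hsp22 and Hsp26, 0, 1 and 1 between Hsp26 and Hsp67Ba, 2, 3 and 2 between Hsp67Ba and Hsp23, and 2, 2 and 1 between Hsp23 and Hsp27.

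The Hsp27 peak was the last entry on the right-hand side of the cluster. The next summit followed after 11723 bp in the pooled list and after 11493, 11751 and 11555 bp in replicates 1, 2 and 3, while the median gap between summits on 3L was 1320.5 bp in the pooled list. Gaps at least as long made up 5.67% of the pooled gaps on the arm. This stretch holds the Hsp27 gene itself, the pseudogenes CR43483 and CR43482, most of the gene CG4080 and a transposable element of the Doc family (9392530 to 9395289). On its left, the nearest pooled summit lay 995 bp away.

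Genes that neighbour the members, with a start in the span or within 5 kb of it, had no IDR summit within 1 kb. Klp67A, a kinesin gene, and CG4452 share a pooled entry of signal 174.4 at rank 3730, Fdx1, a ferredoxin gene, had one of 154.8 at rank 4587, and CG4461, a further alpha-crystallin gene within the cluster, had one of 110.5 at rank 7996. For the antisense gene asRNA:CR43481 the strongest pooled entry within 1 kb was the Hsp26 entry, and a further one of signal 123.0 lay 26 bp from 1 of its starts. The pseudogenes CR43483 and CR43482 had no pooled entry.

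The motifs of heat shock promoters were counted in windows of 250 bp before to 50 bp after each of the members' 9 distinct starts and within 100 bp of the 16 pooled summits. These 9 windows are not separate stretches: those of the 2 Hsp26 starts overlap, and so do those of Hsp67Bc and Hsp67Bb. The heat shock pair between Hsp67Bc and Hsp67Bb counts for both. A TATAAA match there counts for both and for the start that Hsp67Bb shares with Hsp22. A heat shock pair of either form was present in 6 of the 9 promoters (66.7%), against 15.8% of 19276 protein-coding promoters. At the summits it was present in 4 of 16, against 9.81% of IDR summits and 9.93% of other pooled summits. TATAAA was present in 8 of 9 promoters against 42.2%, but at 3 of the 16 summits, against 32.5% of IDR summits and 27.3% of other pooled summits. GAGAG was present in 5 of 9 promoters against 33.1%, and at 3 of the 16 summits, against 28.0% and 25.3%. TACATGG was present in 1 of 9 promoters against 1.87%, and at 2 of the 16 summits, the shared entry in Hsp67Bc and the entry of rank 26713. The summit windows in the cluster had a median GC content of 48.5%, against 37.8% for IDR summits and 40.3% for other pooled summits; the Hsp27 window had 39.3%.

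In the 500 bp before each start, a window chosen after the data had been seen, heat shock pairs numbered 4 or 5 at Hsp26, 4 at Hsp23, 2 at the inner Hsp22 start and at the outer Hsp67Bb start, 1 at their shared start, 1 at Hsp27, 1 at Hsp67Bc and 0 at Hsp67Ba. At least 1 pair stood before 24.7% of all protein-coding starts. GAGAG matches, counted with overlaps, numbered 12 before the inner Hsp22 start, 9 at Hsp26, 3 at Hsp27 and at most 1 at the other members. At least 12 were found before 0.783% of starts and at least 9 before 1.90%. The heat shock pair before Hsp67Bc is also counted at the outer Hsp67Bb start and at the shared start. The members' order by heat shock pairs differed from their order by signal, but a relation between pairs and signal was not tested.

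**Figure D4:**
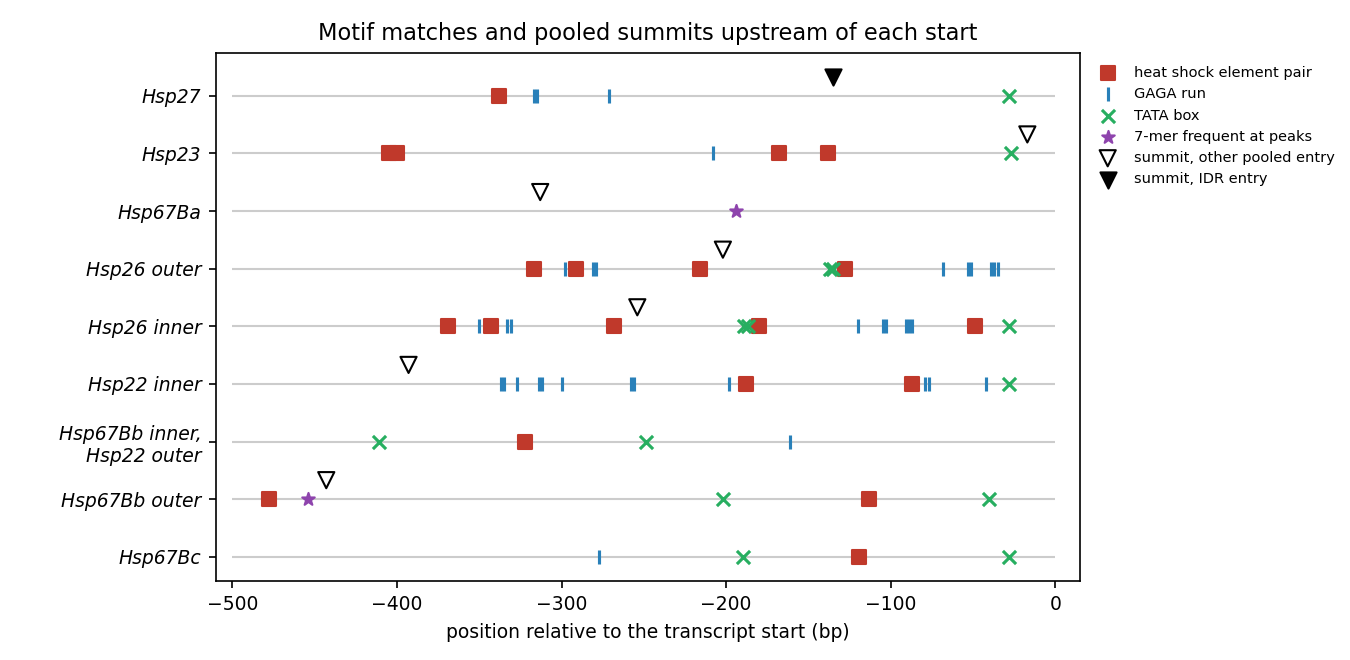
Motif matches in the 500 bp upstream of each distinct start of the 7 genes (horizontal axis, bp; each row is a start, outer being the most upstream start of a gene with more than 1) and the pooled summits in the same stretch (triangles, filled for the IDR entry). Hsp27 has its IDR summit 135 bp upstream, with the heat shock pair 338 bp and the TATA box 28 bp upstream; at Hsp26 the candidate summit lies among the heat shock pairs.

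Other genes of the heat shock response gave a setting for Hsp27. Of 5 further alpha-crystallin genes, 0 had an IDR summit and 2 a pooled candidate within 1 kb, CG4461 and CG14207 (signal 140.7, rank 5400). Of 11 heat-inducible genes outside the family, 5 had an IDR summit and 6 a pooled candidate. Those with an IDR summit were Hsp83, the cytosolic Hsp90 (signal 1470, rank 57), the heat-inducible RNA lncRNA:Hsromega (544.9, rank 476), Hsp68 (300.6, rank 1431), the co-chaperone stv (245.5, rank 2069) and the Hsp40 gene DnaJ-1 (223.3, rank 2452). The 6 near-identical Hsp70 genes had 0 IDR summits, and since reads from such copies may be split or dropped, their values are uncertain. Of 9 genes for factors known at heat shock promoters, 5 had an IDR summit and 6 a pooled candidate. Those with an IDR summit were Nelf-E (signal 803.8), Nelf-A (243.5) and TH1 (279.1), subunits of the pausing complex, Trl, which encodes GAGA factor (507.0), and Hsf, the heat shock factor (200.1). CycT had a candidate outside the IDR list (129.5, rank 6152). NELF-B, a further subunit of the pausing complex, Spt5 and Cdk9 had no pooled candidate, though each had an entry in at least 1 replicate list. The background share for protein-coding genes is the 17.3% given above, and with lists this short and chosen by name no test was made.

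The IDR entries nearest to the Hsp27 peak in the pooled ranking, the measure of likeness used, were those nearest to ush and lncRNA:CR46258 (rank 233, signal 760.5), RpL24 (rank 234, 760.0), lncRNA:CR44363 (rank 236, 756.9) and PolD2 (rank 237, 756.9). The summits of the RpL24 and PolD2 entries lay 0 and 121 bp from a start of those genes, and those nearest to lncRNA:CR44363 and to ush and lncRNA:CR46258 lay 517 and 4966 bp away.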

How the data were processed

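ChIP-seq for CG10431-GFP was carried out on 3 biological replicates of 1 group of whole embryos (0 to 12 h), with chromatin sonicated to 200 to 800 bp, per the labels. The authors deposited candidate peak lists per replicate and for the pooled replicates, each called against 1 control that is not analysed here, and the list of pooled entries that passed IDR, per the notes deposited with the samples. The signal of each entry is the authors' deposited value, and so is its q-value, given as −log10. Coordinates are on dm6, as the labels state, and no aligner or peak caller is named in the labels, file headers or notes. The read depth is unknown, so no interval was computed, and precision rests on 3 replicates.

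Summits are 1-based interval start plus deposited offset. Starts came from Ensembl (release 115, 23779 starts, transposable elements left out), and Hsp67Bb was matched through a RefSeq synonym. A summit within 1000 bp of any start counted for the gene. Ranks are by signal within a list. The order of members was tested by two-sided exact sign-flip permutation of within-replicate log2 ratios, with Benjamini-Hochberg adjustment over 9 pairs. The pairs of Hsp27 with Hsp22 and with Hsp67Bb rest on the same entries and have the same values. A check of the start-window code on simulated data recovered 600 of 600 planted entries, which does not bear on the order. Proteins were aligned globally (gap opening 10, extension 0.5; Biopython 1.88). Python 3.11.15, NumPy 2.4.6, pandas 2.3.3 and SciPy 1.17.1 were used. Motifs were searched on both strands of the RefSeq copy of dm6; GAANNTTC and TTCNNGAA are their own reverse complements, and overlapping matches were counted.

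The members, gene lists and motifs were chosen with earlier results of these data known. All 7 members are named, with their neighbours within 5 kb, the genes of the other lists with an IDR summit and the nearest genes to the 2 IDR entries next above and next below Hsp27 in rank. CG14207, the Hsp70 genes, CycT, NELF-B, Spt5 and Cdk9 fall outside this rule and were named after their values were seen. Alternatives were other windows, nearest starts only, interval overlap, stricter IDR subsets, q-values in place of signal, other recurrence limits, a wider span, other motif windows, the replicate entry nearest to the pooled summit and each replicate left out.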

Additional observations from a re-analysis of the deposited data

How the results depend on the processing

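Of 80 values recomputed for 18 results, 73 were scored as kept, 6 as moved and 1 as reversed. Several of these could hardly change, so the share kept is no measure of stability. Kept meant the same sign for a ratio of members and a shift below the SD over replicates for a signal. For recurrence it meant the same value, and for counts and densities a value within a set fold limit of the main one. The mean log2 ratio of Hsp26 over Hsp23, 0.15 with all replicates, was −0.0089 without replicate 2 and 0.35 without replicate 1; it rests on replicate 2. Leaving out a replicate gave 1.38 to 1.67 for Hsp27 over Hsp22, 0.41 to 0.63 for Hsp22 over Hsp26 and 0.071 to 0.75 for Hsp23 over Hsp67Ba, the lowest of these without replicate 3. The count of 1 member with an IDR summit was 1 in all 11 alternatives, and that of 7 with a pooled candidate was 6 within 250 bp, the Hsp67Ba summit lying at 313 bp, and 7 in the other 5. Alternatives that only narrowed the window or the IDR list could not raise the IDR count. Leaving out a replicate there kept the pooled IDR entries found in the remaining replicates, and the IDR analysis was not repeated. The 7 alternative values for recurrence all rest on the 1 Hsp27 peak. The IDR density ratio of 2.70 was 1.58 with the span widened by 5 kb on each side, where the same 1 peak stands in a longer span. The pooled density ratio of 4.61 was 3.21 with the same widening, which the fold limit scored as kept. Cluster windows with a heat shock pair numbered 2 within 50 bp and 6 within 200 bp of the summit, against 4 within 100 bp. Motifs at the Hsp27 summit numbered 2 within 200 bp (GAGAG and TATAAA), against 0. With the replicate entry nearest to the pooled summit in place of the strongest, the mean log2 signal of Hsp22, Hsp67Bb and Hsp67Bc was 6.01 and that of Hsp26 5.88, and the mean log2 ratio of Hsp22 over Hsp26 was 0.13 (exact sign-flip permutation p = 0.75, n = 3) against 0.55. No paired analysis was possible because there is 1 group of samples, so no groups share replicate numbers; the ratios of members were taken within replicates.

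The smallest exact p is 0.25 with 3 replicates and 0.5 with 2, so no p-value bears on the stability of the order. The unknown read depth and signal scale leave ratios interpretable within a list only, and the pooled list holds the same reads as the replicates. All replicates come from 1 line and stage.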

Other observations

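The sequence at the Hsp27 summit holds a pair of 9-letter arms that are reverse complements of each other, ATGGCAACC and GGTTGCCAT, beginning 103 and 65 bp upstream of the start with 29 bp between them. They were noticed after the sequence had been read, and no test was made. The first arm begins 32 bp and the second 70 bp from the pooled summit. Inverted repeats with arms at least that long were common, occurring within 100 bp of 19.2% of IDR summits and of 16.4% of other pooled summits. The 8-letter run ATGGCAAC on either strand was rarer, present at 1.72% of IDR summits and 1.04% of other pooled summits. It was present at 3.0% of the strongest 300 and 2.0% of the strongest 1000 IDR summits. Each IDR share includes the Hsp27 window, from which the run was read. A window with 2 copies was found once among the 3314 IDR summits, at Hsp27, and in 3 of the 26686 other windows. The 2 copies at Hsp27 lie in the arms themselves, so that match was fixed when the run was picked.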
